A study of Zea mays with 24 samples.

Results

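Maize is a C4 plant, and its leaves divide carbon fixation between mesophyll and bundle sheath cells. The transcripts of 10 genes of this pathway were followed in 24 maize leaf libraries. They were chosen by gene identifier as a list of C4 cycle and Rubisco enzymes, 10 of the 37467 genes listed in the series, with no use of a measured value. In the mesophyll, carbonic anhydrase (CA) hydrates CO2 to bicarbonate, phosphoenolpyruvate carboxylase (PEPC) fixes it into oxaloacetate, and NADP-dependent malate dehydrogenase (NADP-MDH) reduces oxaloacetate to malate. In the bundle sheath, NADP-dependent malic enzyme (NADP-ME) and, to a lesser degree, phosphoenolpyruvate carboxykinase (PEPCK) release CO2 for Rubisco, and pyruvate, phosphate dikinase (PPDK) in the mesophyll regenerates the acceptor. Rubisco takes its small subunit from nuclear RbcS genes, and Rubisco activase (RCA) removes inhibitory sugar phosphates from its active site.

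RNA-seq libraries came in 3 sets, each of 4 groups with 2 libraries apiece. The W22 set held the zmnf-ya1 mutant, homozygous for a Mutator transposon insertion in ZmNF-YA1, and its inbred background W22. The B104 set held ZmNF-YB16 OE, 1 transgenic overexpression line, and its background, the inbred B104. The DH4866 set held libraries labelled ZmNF-YA1OE, for which the construct described places ZmNF-YA1 under the stress-inducible Arabidopsis rd29A promoter, and the inbred DH4866. Each line was sampled under drought stress and under normal conditions. The question put to these genes was how drought changed them in each line and whether a line differed from its wild type. The labels give leaf of the V4 stage, a young vegetative stage, for all libraries, whereas the study's methods give ear leaves after pollination from field plants for the B104 set and greenhouse seedlings for the W22 set, with leaves of several plants pooled per sample. The methods also give another RNA extraction and another sequencing platform for the B104 set than for the W22 set. Growth, stage, inbred, extraction and platform therefore cannot be told apart between these sets, and the methods describe no growth or sequencing of the DH4866 set for RNA-seq. No source states that replicates came from separate cultivations, so P values measure only the spread between these samples.

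The annotation deposited with the files was checked for each member. The protein description named the enzyme for 7 of the 10 genes, namely PEPC (GRMZM2G083841), PPDK (GRMZM2G306345), NADP-ME (GRMZM2G085019), PEPCK (GRMZM2G001696), RbcS-1 (GRMZM2G098520), RbcS-2 (GRMZM2G113033) and RCA1 (GRMZM2G162200). For 2 more, NADP-MDH (GRMZM2G129513) and CA (GRMZM2G121878), the protein was described as unknown or uncharacterized and the KEGG entry named the enzyme. The last, GRMZM2G162282, was described as an uncharacterized protein, and its KEGG entry named a regulatory subunit of the proteasome, so the files do not call it an activase. RefSeq lists rca3 among its synonyms, and it is called RCA3 here on that ground alone. RbcS-1 and RbcS-2, RCA1 and RCA3, and PPDK and its near copy GRMZM2G097457 may share reads, so the split between them is uncertain.

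B104-set libraries held 3429314 to 5608889 expected counts each, far fewer than those of the W22 set (20863136 to 21178202) or the DH4866 set (20696448 to 21289711), so counting error was larger there. Chlorophyll a-b binding proteins, the leaf markers, summed to 3874 FPKM (fragments per kilobase of transcript, scaled to library size) or more in every library, against at most 38.0 for the zeins of the kernel and 159 for the pollen allergens. ZmNF-YA1 (GRMZM2G000686) had 91.0 and 107 expected counts in zmnf-ya1, against 278 and 298 in W22 under normal conditions, and 110.0 and 102 against 121 and 145 under drought, where the difference did not pass the test (edgeR adjusted P = 0.135). The study reports that its mutant lines had no transcripts of this gene, whereas these zmnf-ya1 libraries held counts of it, for a reason not tested. In the libraries labelled ZmNF-YA1OE, ZmNF-YA1 had 133 and 136 under drought, against 146 and 150.0 in DH4866, and 278 and 260.0 against 236 and 247 under normal conditions (edgeR adjusted P = 0.424 and 0.544). The counts of ZmNF-YA1 therefore do not bear out that label. The gene identifier of ZmNF-YB16 was not found in the sources used here, so overexpression was not checked in the B104 set. The single gene annotated as a dehydrin, a protein family induced by water loss, had a higher level under drought in the B104 set (2254 to 2758 FPKM, against 1094 to 1236 under normal conditions) but not in the DH4866 set (297 to 329, against 466 to 619). In the W22 set it was lower under drought in zmnf-ya1 (218.9 and 221.4, against 321.7 and 321.9). In W22 itself its libraries overlapped (199.1 and 208.1, against 201.2 and 233.4).

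All 10 genes were listed in all 24 libraries and passed the filter on low counts in every set. Levels between genes are compared here as FPKM, which are per transcript length. PPDK had the highest level in all 12 groups and RCA3 the lowest. In W22 under normal conditions PPDK had 15622 and 15556 FPKM, followed by PEPC with 7328 and 7246, CA with 4458 and 4181 and RbcS-2 with 3414 and 3159. PEPCK with 2944 and 2852 FPKM and NADP-ME with 2885 and 2794 came next, and their libraries overlapped. RbcS-1 followed with 2558 and 2382, RCA1 with 1637 and 1614 and NADP-MDH with 658 and 677, far above RCA3 with 34.2 and 35.9. Of the 108 neighbouring pairs in the orders of the 12 groups, the libraries overlapped in 4. PEPC was second in 10 groups. In the drought groups of the B104 set NADP-ME was second instead, with 1728 and 1709 FPKM in ZmNF-YB16 OE and 1257 and 1246 in B104, and PEPC lay below RCA1 in B104 and overlapped with it in ZmNF-YB16 OE.

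**Figure D1:**
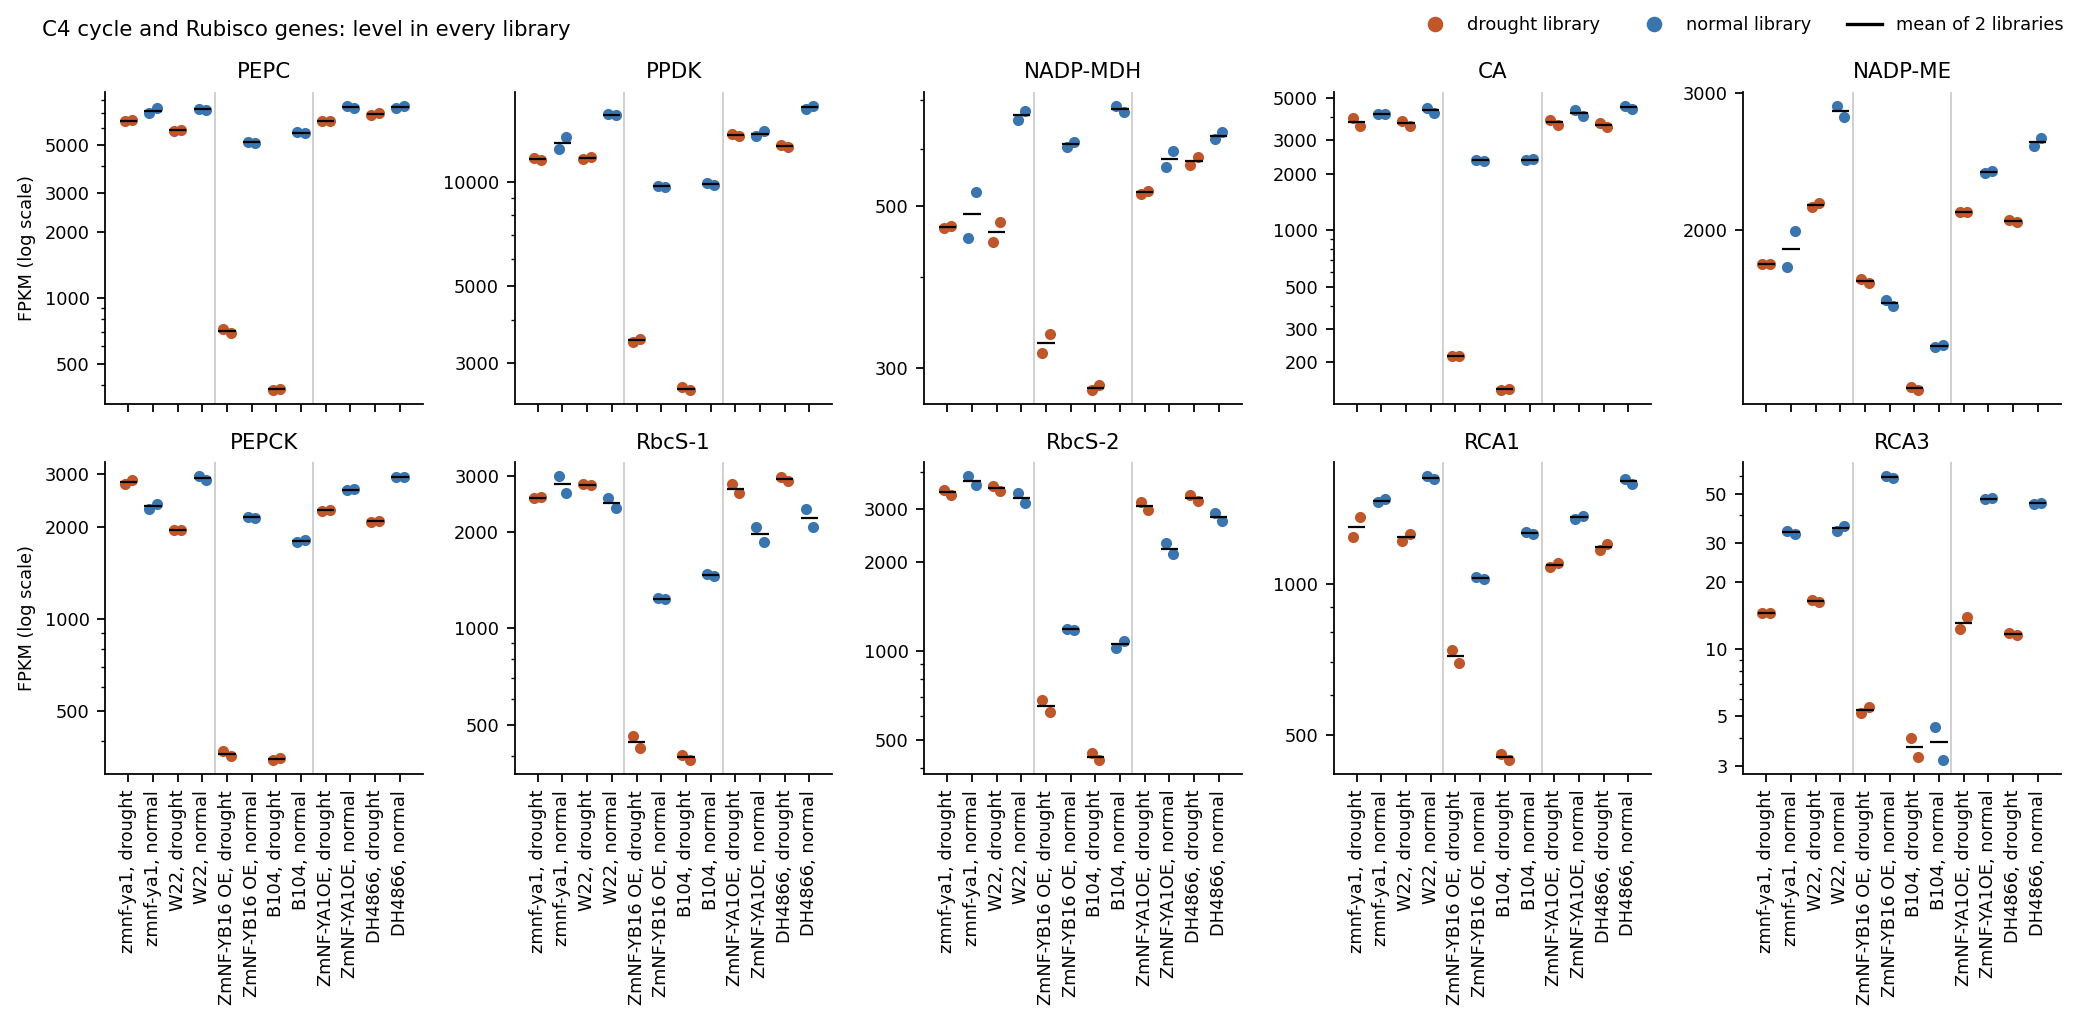
FPKM of each of the 10 genes in all 24 libraries on a log scale, with drought libraries in orange, normal libraries in blue and the mean of 2 libraries as a bar. PEPC lies at 379 and 383 FPKM in droughted B104, against 5720.1 and 5654 in normal B104, while its levels in the W22 and DH4866 sets all lie within 5803 to 7530.4 FPKM.

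Drought lowered nearly the whole group in the B104 set. A gene was called when its adjusted P, over all genes tested in the set, was below 0.05. In B104, 9 of the 10 genes were lower under drought and 0 higher, where 25.9% of the 21970 genes tested were called lower, and 8 also passed an absolute log2 fold change of 1, as 13% of all genes did. In ZmNF-YB16 OE all 10 were lower with TMM scaling, a scaling by trimmed means, and NADP-ME was higher with library size alone (25.7% and 25.5% of all genes were called lower and higher), and 8 passed that size (11.9%). The median log2 fold change of the 10 genes was -1.97 in B104 and -1.73 in ZmNF-YB16 OE, against 0.00 and 0.00 over all genes tested. Shares of all genes called, here and below, are those with TMM scaling, and none was taken with library size alone. They are not matched for level. All members but RCA3 had high counts, at which smaller changes pass the test, so part of an excess over these shares may reflect level.

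CA and PEPC, the enzymes of the first fixation step, fell most in B104. CA fell to 143 and 144 FPKM in droughted B104, against 2351 and 2391 in normal B104 (log2 fold change -4.31, SE 0.025, edgeR adjusted P = 2.38e-28), a 19.8-fold decrease with TMM scaling. The smallest fall of CA among the alternative fits was a log2 fold change of -4.02. PEPC fell to 379 and 383 FPKM, against 5720.1 and 5654 (log2 fold change -4.19, SE 0.022, edgeR adjusted P = 1.29e-28), an 18.3-fold decrease with TMM scaling. Its smallest fall among the alternative fits was -3.90. The groups of both genes lay far apart, and replicates differed by little. Over genes with at least 10 counts, the spread between replicates relative to counting error (chi-squared per degree of freedom) was 1.33 in droughted B104 and 3.41 in normal B104. The droughted replicates thus differed by little more than counting error, and these standard errors may hold little of the spread between plants. PPDK had 2555 and 2514 FPKM under drought, against 9903 and 9783 under normal conditions (log2 fold change -2.22, SE 0.013). NADP-MDH had 279.7 and 284 FPKM, against 688 and 675 (log2 fold change -1.57, SE 0.032). All 4 mesophyll enzymes thus fell by more than 1 on the log2 scale, with a median of -3.21, against -1.65 for the 6 bundle sheath enzymes. The ranges overlapped, since PEPCK (-2.66), RbcS-1 (-2.18) and RCA1 (-1.75) of the bundle sheath fell more than NADP-MDH. RbcS-2 (-1.55) also fell by more than 1, and the bundle sheath median includes RCA3, which was not called.

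Of the bundle sheath decarboxylases, PEPCK fell to 346 and 350.4 FPKM in droughted B104, against 1789.5 and 1813 in normal B104 (log2 fold change -2.66, SE 0.024, edgeR adjusted P = 7.19e-25). NADP-ME, the main decarboxylase in maize, changed least among the genes called, with 1257 and 1246 FPKM, against 1416 and 1422 (log2 fold change -0.47, SE 0.019, edgeR adjusted P = 1.93e-14, and a log2 fold change of -0.18 with library size alone). In ZmNF-YB16 OE its direction turned on the scaling, since it had 1728 and 1709 FPKM under drought, against 1623 and 1598 under normal conditions, and a log2 fold change of -0.16 with TMM scaling but 0.09 with library size alone (edgeR adjusted P = 5.85e-07 and 2.47e-05). RbcS-1 fell to 403 and 388 FPKM, against 1476 and 1463 in normal B104, and RbcS-2 to 450.1 and 427, against 1025 and 1075 (log2 fold changes -2.18 and -1.55). RCA1 had 458 and 446 FPKM in droughted B104, against 1268 and 1258 in normal B104 (log2 fold change -1.75, SE 0.032, edgeR adjusted P = 3.4e-20).

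In these samples of whole leaves, fewer cells of a type and less RNA per cell cannot be told apart. The leaf markers moved with the group in this set. The chlorophyll a-b binding proteins, 13 genes, summed to 3924 and 3947 FPKM in droughted B104 and 4144 and 3874 in droughted ZmNF-YB16 OE, against 14003 and 13967 in normal B104 and 11605 and 11466 in normal ZmNF-YB16 OE. Their part in the result was not tested. With library size alone the median of all genes in B104 moved by 0.29 on the log2 scale, and 9 of the 10 genes were still called lower.

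RCA3 did not follow the other genes in the B104 set. It had 5.17 and 5.49 FPKM in droughted ZmNF-YB16 OE, against 60.0 and 58.7 in normal ZmNF-YB16 OE, and 4.01 and 3.29 in droughted B104, against 4.46 and 3.18 in normal B104. It was therefore high only in the 2 normal ZmNF-YB16 OE libraries among the 8 of the set. Its fall under drought passed the test in ZmNF-YB16 OE (log2 fold change -3.74, SE 0.13, edgeR adjusted P = 1.17e-15) and not in B104 (log2 fold change -0.42, SE 0.23, edgeR adjusted P = 0.183). Under normal conditions it was 14.2-fold higher in ZmNF-YB16 OE than in B104 (log2 fold change 3.83, SE 0.14, edgeR adjusted P = 3.82e-14), a difference that 276 of the 3203 genes called higher in this comparison reached or passed. In the W22 and DH4866 sets RCA3 had 11.6 to 16.6 FPKM under drought, against 33.1 to 47.7 under normal conditions. Droughted B104 and normal B104 thus both lay below all 16 libraries of these sets.

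**Figure D2:**
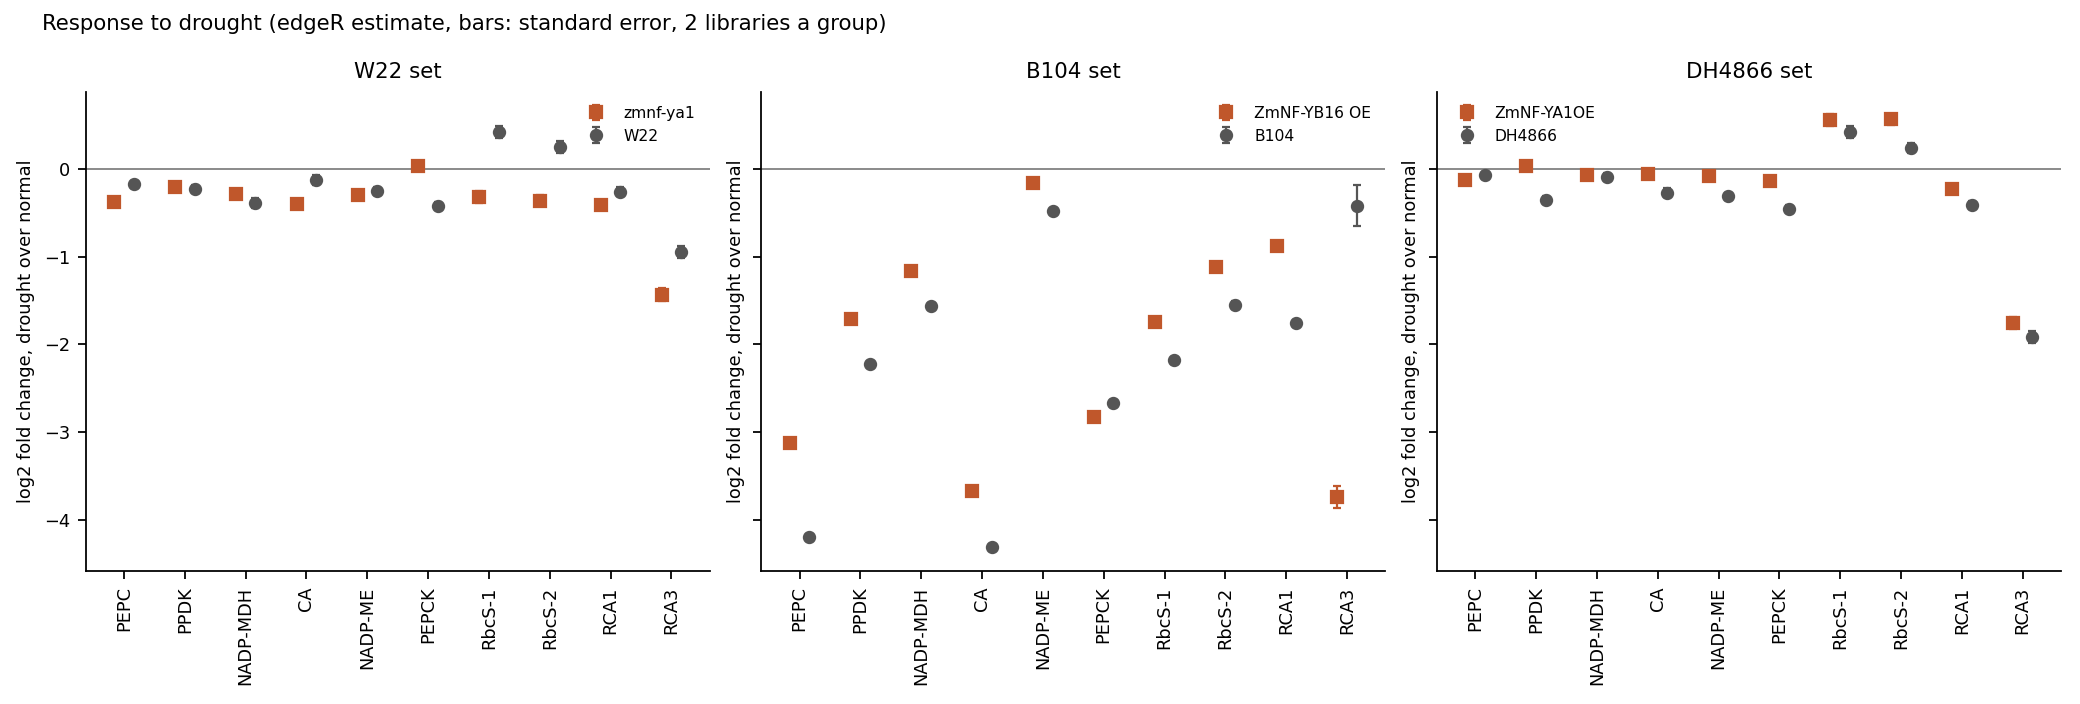
Log2 fold change of drought over normal for each gene, with standard errors, in the mutant or overexpression line (orange squares) and its wild type (grey circles) of each set. The B104 set spans -4.31 to -0.42 in B104, whereas in W22 the values lie between -0.95 and 0.43.

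Changes under drought were much smaller in the W22 set. In W22, 7 of the 10 genes were lower and 2 higher, where 33.8% and 34.8% of all 24159 genes tested were called, so a call by itself was common. None passed an absolute log2 fold change of 1 with TMM scaling, which 14.4% of all genes passed downwards and 17.5% upwards. The median of the 10 genes was -0.24, against 0.00 over all genes. RCA3 fell most, to 16.6 and 16.3 FPKM in droughted W22, against 34.2 and 35.9 in normal W22 (log2 fold change -0.95, SE 0.07, edgeR adjusted P = 4.91e-08). PEPCK fell to 1958 and 1965 FPKM, against 2944 and 2852 (log2 fold change -0.42, SE 0.044, edgeR adjusted P = 1.75e-06). PEPC had 5803 and 5860.5 FPKM, against 7328 and 7246, with a log2 fold change of -0.18 with TMM scaling and -0.32 with library size alone. CA had 3813 and 3559 FPKM, against 4458 and 4181, and its log2 fold change of -0.12 did not pass with TMM scaling (edgeR adjusted P = 0.08) but was -0.27 and passed with library size alone (edgeR adjusted P = 0.000274). It also passed with limma, with a replicate block and without either normal zmnf-ya1 library. With library size alone 8 of the 10 genes were lower and 1 higher, with a median of -0.38, against -0.15 over all genes, and RCA3 reached -1.09.

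The RbcS genes went the other way in W22. RbcS-1 rose to 2819 and 2799.6 FPKM in droughted W22, against 2558 and 2382 in normal W22 (log2 fold change 0.43, SE 0.071, edgeR adjusted P = 0.000121), a log2 fold change that was 0.28 with library size alone and 0.19 with limma on log2(FPKM + 1). RbcS-2 had 3614 and 3461 FPKM, against 3414 and 3159, and its rise (log2 fold change 0.25, SE 0.064, edgeR adjusted P = 0.00319) did not pass with library size alone (0.11, edgeR adjusted P = 0.0696), with limma or without W22 normal replicate 2. In zmnf-ya1 both were lower under drought with TMM scaling, RbcS-1 with 2552 and 2566 FPKM, against 2992 and 2645 in normal zmnf-ya1 (log2 fold change -0.32, edgeR adjusted P = 0.00164), and RbcS-2 with 3495 and 3354, against 3888 and 3620.2 (log2 fold change -0.36, edgeR adjusted P = 0.000281). With library size alone these became -0.09 and -0.13, of which the first did not pass. The leaf markers went the same ways, with 49957 and 49972 FPKM in droughted W22, against 45485 and 44406 in normal W22, and 46991 and 47762 in droughted zmnf-ya1, against 63598 and 59685 in normal zmnf-ya1. Their part in these changes was not tested.

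Altogether 9 of the 10 genes were lower under drought in zmnf-ya1 and 0 higher, where 29.6% of all genes were called lower. With library size alone, which moved the median of all genes by 0.22 on the log2 scale, 5 were lower and 1, PEPCK, was higher. PPDK, with 11706 and 11579 FPKM, against 12449.6 and 13480.3, turned from a log2 fold change of -0.21 to 0.02. PEPCK had 2765 and 2851 FPKM in droughted zmnf-ya1, against 2298 and 2393 in normal zmnf-ya1, and a log2 fold change of 0.03 with TMM scaling (edgeR adjusted P = 0.538) and 0.26 with library size alone (edgeR adjusted P = 5.09e-05). The falls of PEPC, CA, RbcS-2, RCA1 and RCA3 were called under both scalings, that of RCA3 being the largest (log2 fold change -1.43, SE 0.071, edgeR adjusted P = 1.39e-09). Those of CA and RbcS-2 did not pass with limma on log2(FPKM + 1) (limma adjusted P = 0.0854 and 0.0844).

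In the DH4866 set the RbcS genes were again higher under drought and RCA3 lower. In DH4866, 6 of the 10 genes were lower under drought and 2 higher (31.1% and 31.6% of all 24604 genes tested), and in the libraries labelled ZmNF-YA1OE 4 were lower and 2 higher (28.6% and 29.1%). The lower genes under library size alone numbered 8 in DH4866 and 7 in the libraries labelled ZmNF-YA1OE, where NADP-MDH, CA and NADP-ME were gained. The genes called higher were RbcS-1 and RbcS-2 in both. RbcS-1 rose to 2972 and 2890.1 FPKM in droughted DH4866, against 2359.8 and 2075 in normal DH4866 (log2 fold change 0.42, SE 0.072, edgeR adjusted P = 0.000123), and to 2831 and 2644 in the droughted libraries labelled ZmNF-YA1OE, against 2080.0 and 1862 in the normal ones (log2 fold change 0.56, SE 0.072, edgeR adjusted P = 9.42e-06). RCA3 alone of the 10 passed a log2 fold change of -1 in DH4866, as 12.9% of all genes did, with 11.9 and 11.6 FPKM in droughted DH4866, against 44.9 and 45.6 in normal DH4866 (log2 fold change -1.92, SE 0.07, edgeR adjusted P = 1.14e-11). It also fell in the libraries labelled ZmNF-YA1OE, to 12.4 and 14.0 FPKM, against 47.1 and 47.7 (log2 fold change -1.76, SE 0.069). PPDK fell to 12793 and 12620.1 FPKM in droughted DH4866, against 16193 and 16527 (log2 fold change -0.35, SE 0.037, edgeR adjusted P = 1.29e-06), and PEPCK to 2090.3 and 2105, against 2917 and 2936 (log2 fold change -0.45, SE 0.04, edgeR adjusted P = 1.63e-07).

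Drought responses were compared between the inbreds in a fit of all 24 libraries. B104 differed from W22 for 9 of the 10 genes, all towards a lower value (26.2% of the 26555 genes tested, with 24.6% the other way), and from DH4866 for 9 towards a lower value (26%) and 1, RCA3, the other way (22.9%). RbcS-1 and RbcS-2 fell in B104 but had positive log2 fold changes in W22 and DH4866, so their responses were opposite in direction. The log2 fold change of PEPC in B104 differed by -4.06 from that in W22 (SE 0.052) and by -4.18 from that in DH4866 (SE 0.052). For CA the differences were -4.23 and -4.10. NADP-ME gave -0.26 and -0.23 with TMM scaling but 0.21 and 0.16 with library size alone, so its direction is not settled, and RCA3 was called higher in both with library size alone (0.96 and 1.82). DH4866 differed from W22 for NADP-MDH (difference 0.32, SE 0.063, edgeR adjusted P = 0.000227) and for RCA3 (difference -0.96, SE 0.099, edgeR adjusted P = 1.35e-08), where 19.4% and 19.3% of all genes were called higher and lower. For RbcS-1 the difference between DH4866 and W22 was 0.02 with an SE of 0.1. Between B104 and W22 the stage, growth, RNA extraction and platform given in the methods differ with the inbred and cannot be told apart from it. They are not described for the DH4866 set, so between B104 and DH4866 they cannot be told apart from the inbred either.

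The comparison of zmnf-ya1 with W22 depended on the scaling under normal conditions. The 2 normal zmnf-ya1 libraries had TMM factors of 0.834 and 0.884, against 1.13 and 1.13 in normal W22, and with library size alone the median of all genes moved by -0.39 on the log2 scale. With TMM scaling 6 of the 10 genes were higher in zmnf-ya1 and 1 lower (30.2% and 23.4% of all genes), whereas with library size alone 2 were higher and 5 lower. The share of all genes called was not taken with library size alone, so the counts under that scaling have no background. Both scalings called RbcS-1 and RbcS-2 higher. The 13 leaf marker genes moved with them, summing to 63598 and 59685 FPKM in normal zmnf-ya1, against 45485 and 44406 in normal W22, and their part in the result was not tested. RbcS-1 had 2992 and 2645 FPKM in zmnf-ya1, against 2558 and 2382 in W22 (log2 fold change 0.64 with TMM, SE 0.071, and 0.24 with library size alone). RbcS-2 had 3888 and 3620.2 FPKM in zmnf-ya1, against 3414 and 3159 in W22 (0.60 and 0.19). NADP-ME was lower under both scalings, with 1793 and 1991 FPKM in zmnf-ya1, against 2885 and 2794 in W22 (-0.19 and -0.58). PEPC (0.38 and -0.02), CA (0.32 and -0.08), RCA1 (0.25 and -0.15) and RCA3 (0.34 and -0.06) were called higher with TMM and turned below 0 with library size alone.

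Under drought the scaling mattered little, since the median of all genes moved by -0.03. PEPCK was higher in zmnf-ya1, with 2765 and 2851 FPKM, against 1958 and 1965 in W22 (log2 fold change 0.55, SE 0.044, edgeR adjusted P = 1.74e-06). NADP-ME was lower, with 1808 and 1809 FPKM in zmnf-ya1, against 2142 and 2162 in W22 (log2 fold change -0.22, SE 0.045, edgeR adjusted P = 0.00344). PEPC was higher, with 6398 and 6479 FPKM in zmnf-ya1, against 5803 and 5860.5 in W22 (log2 fold change 0.17, SE 0.039, edgeR adjusted P = 0.00637), a call that was lost with limma and without either droughted W22 library. The other 7 genes had log2 fold changes of -0.14 to 0.09 and were not called, among a background of 9.5% higher and 9.79% lower.

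The difference between the drought responses of zmnf-ya1 and W22 was called for 1 gene towards a higher and 5 towards a lower value (15.3% and 22.5% of all genes) with TMM scaling, but with library size alone, which moved the median of all genes by 0.37, for 6 towards a higher and 2 towards a lower value. RbcS-1 (difference -0.74, SE 0.1, edgeR adjusted P = 6.71e-05), RbcS-2 (-0.61, SE 0.09, edgeR adjusted P = 0.00014) and PEPCK (0.45, SE 0.062, edgeR adjusted P = 8.28e-05) were called in the same direction with library size alone (-0.37, -0.24 and 0.82). The differences of PEPC (-0.21) and CA (-0.28) turned to 0.16 and 0.10, of which only that of PEPC passed, and that of RCA3 (-0.49) became -0.12, which did not pass. PPDK (0.01 and 0.38), NADP-MDH (0.10 and 0.47), NADP-ME (-0.04 and 0.33) and RCA1 (-0.16 and 0.21) were called, as higher, with library size alone only. The difference of CA was also lost without W22 normal replicate 2, W22 drought replicate 1 or zmnf-ya1 drought replicate 2.

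**Figure D3:**
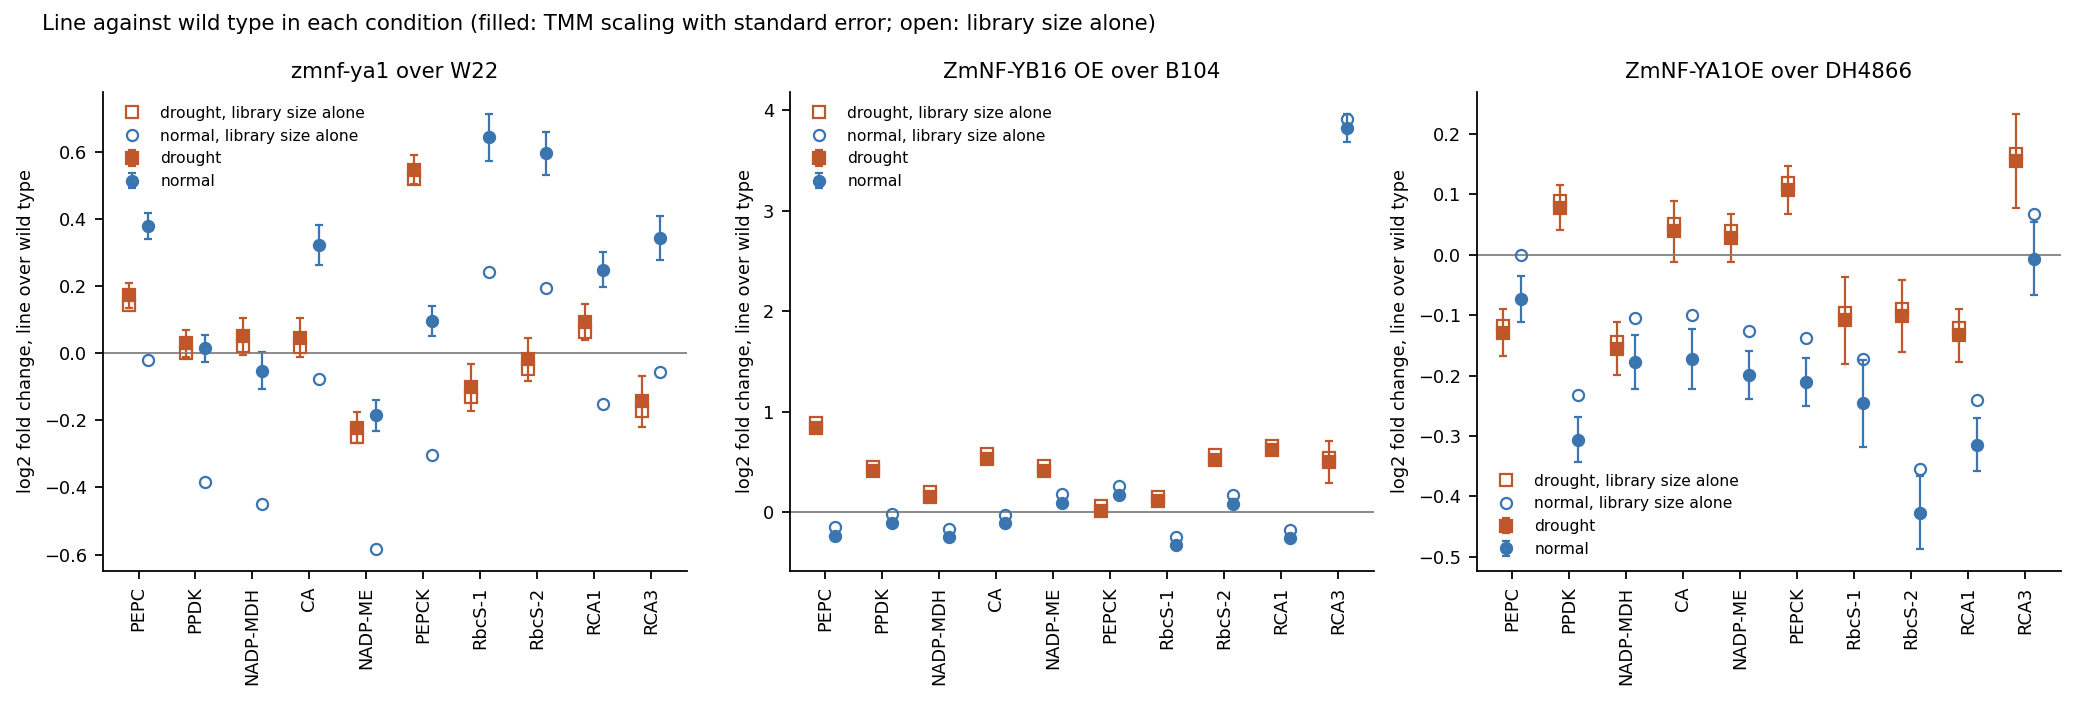
Log2 fold change of each line over its wild type under drought (orange squares) and normal conditions (blue circles), filled with TMM scaling and its standard error, open with library size alone. In normal zmnf-ya1 over W22 the open circle of PEPC lies at -0.02 and the filled one at 0.38, whereas RbcS-1 stays above 0 in both, at 0.24 and 0.64.

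In the B104 set most of the genes were higher in the overexpression line under drought. There 8 of the 10 genes were higher in ZmNF-YB16 OE than in B104 and 0 lower, where 16% of all genes were called higher and 15.9% lower. PEPC had 721 and 688 FPKM in droughted ZmNF-YB16 OE, against 379 and 383 in droughted B104 (log2 fold change 0.84, SE 0.02, edgeR adjusted P = 3.1e-17). RCA1 had 739 and 697 FPKM, against 458 and 446 (log2 fold change 0.62, SE 0.031, edgeR adjusted P = 3.87e-12), and CA 216 and 215, against 143 and 144 (log2 fold change 0.54, SE 0.023, edgeR adjusted P = 3.12e-13). RbcS-2 had 679.9 and 619 FPKM, against 450.1 and 427 (log2 fold change 0.52), PPDK 3457 and 3519, against 2555 and 2514 (0.41), and NADP-ME 1728 and 1709, against 1257 and 1246 (0.41). The FPKM of ZmNF-YB16 OE and B104 did not overlap for any of the 10 genes, called or not, so this does not set these 6 genes apart. NADP-MDH was higher by 0.16 and RbcS-1 by 0.11, and the RbcS-1 call was lost with DESeq2 and without any of 4 single libraries. PEPCK, with 371 and 356 FPKM, against 346 and 350.4, and RCA3 were not called.

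Under normal conditions 3 genes were higher and 6 lower in ZmNF-YB16 OE (14.6% and 15.7% of all genes). Scaling by library size alone gave 4 higher and 4 lower, as PPDK (-0.10 and -0.02) and CA (-0.11 and -0.02) were lost and RbcS-2 (0.09 and 0.17) was gained. Apart from RCA3, the differences were small, between -0.33 for RbcS-1, with 1241 and 1234 FPKM in ZmNF-YB16 OE, against 1476 and 1463 in B104, and 0.18 for PEPCK, with 2169.8 and 2151, against 1789.5 and 1813. PEPC had 5172 and 5105 FPKM, against 5720.1 and 5654 (log2 fold change -0.23, SE 0.019, edgeR adjusted P = 7.69e-09). The drought response of ZmNF-YB16 OE was higher than that of B104 for 8 genes (9.13% of all genes), by 1.07 for PEPC (SE 0.027, edgeR adjusted P = 4.75e-16), 0.87 for RCA1 (SE 0.044) and 0.64 for CA (SE 0.031), each a smaller fall in ZmNF-YB16 OE. It was lower for PEPCK (difference -0.16, SE 0.033) and RCA3 (difference -3.33, SE 0.28), where 8.57% of all genes were called lower. All 10 differences were called, in the same direction, in each alternative fit and without each library in turn.

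The libraries labelled ZmNF-YA1OE had lower levels than DH4866 for 8 of the 10 genes under normal conditions and a higher level for none (9.88% and 10.1% of all genes), and with library size alone 5 were called lower. RbcS-2 had 2303 and 2118 FPKM, against 2909 and 2744 in DH4866 (log2 fold change -0.43, SE 0.06, edgeR adjusted P = 0.000154), RCA1 1348 and 1363, against 1615 and 1582 (log2 fold change -0.31, SE 0.044, edgeR adjusted P = 0.00016), and PPDK 13569 and 13952, against 16193 and 16527 (log2 fold change -0.31, SE 0.037, edgeR adjusted P = 4.11e-05). Under drought 3 were lower and 0 higher (11.8% and 10.8% of all genes), the lower ones being PEPC (-0.13), NADP-MDH (-0.16) and RCA1 (-0.13), and none of these calls remained when any of the 4 droughted libraries was left out. The difference in drought response was called towards a higher value for 4 genes and a lower one for 0 (8.67% and 9.4% of all genes). The 4 were PPDK (0.38, SE 0.053), RbcS-2 (0.33, SE 0.085), PEPCK (0.32, SE 0.056) and NADP-ME (0.23, SE 0.056). Of these, NADP-ME was lost without either droughted DH4866 library and RbcS-2 without any of 4 libraries. Since ZmNF-YA1 was not called higher in these libraries, the directions are those of the labels only.

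Ratios between members within a library do not depend on the scaling between libraries. The summed FPKM of the 2 RbcS genes over that of PEPC was 2.25 and 2.13 in droughted B104, against 0.437 and 0.449 in normal B104, and 1.59 and 1.51 in droughted ZmNF-YB16 OE, against 0.469 and 0.473 in normal ZmNF-YB16 OE. It was also higher under drought in W22 (1.11 and 1.07, against 0.815 and 0.765), in DH4866 (0.919 and 0.869, against 0.716 and 0.64) and in the libraries labelled ZmNF-YA1OE (0.938 and 0.879, against 0.583 and 0.542). In zmnf-ya1 the droughted libraries (0.945 and 0.914) lay within the range of the normal ones (0.988 and 0.85). PEPC over NADP-ME was 0.302 and 0.307 in droughted B104, against 4.04 and 3.98 in normal B104. Under drought this ratio was 3.54 and 3.58 in zmnf-ya1, against 2.71 and 2.71 in W22, and under normal conditions it was 3.89 and 3.7 in zmnf-ya1, against 2.54 and 2.59 in W22. With 2 libraries against 2, an exact permutation test cannot give a P below 0.333, so the ratios are given as a description.

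**Figure D4:**
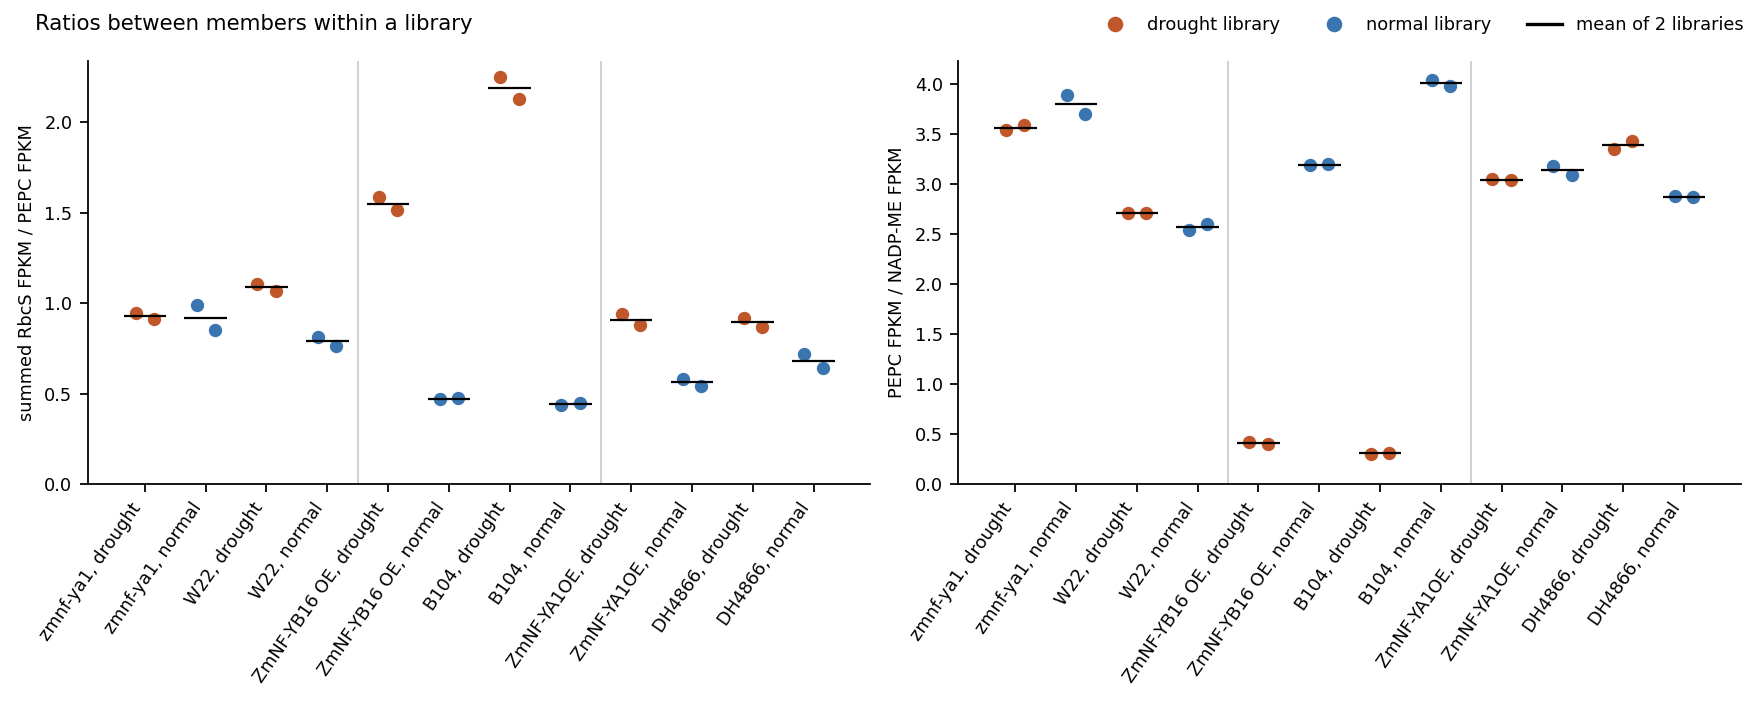
Summed RbcS FPKM over PEPC FPKM (left) and PEPC FPKM over NADP-ME FPKM (right) in every library, with the mean of 2 libraries as a bar. Droughted B104 has 2.25 and 2.13 on the left and 0.302 and 0.307 on the right, the highest and the lowest values of the 24 libraries.

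The 10 genes together held 6.76 to 8.55% of all expected counts in the libraries of the W22 and DH4866 sets. They held 1.19 and 1.18% in droughted B104 and 1.66 and 1.64% in droughted ZmNF-YB16 OE, against 5.37 and 5.35% in normal B104 and 5.27 and 5.21% in normal ZmNF-YB16 OE. The summed FPKM of the mesophyll enzymes over that of the bundle sheath enzymes was 1.15 and 1.16 in droughted B104, against 2.67 and 2.63 in normal B104. It was 1.18 and 1.25 in droughted ZmNF-YB16 OE, against 2.45 and 2.44 in normal ZmNF-YB16 OE. In the W22 set it was 1.84 and 1.86 in droughted W22, against 2.08 and 2.15 in normal W22.

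**Figure D5:**
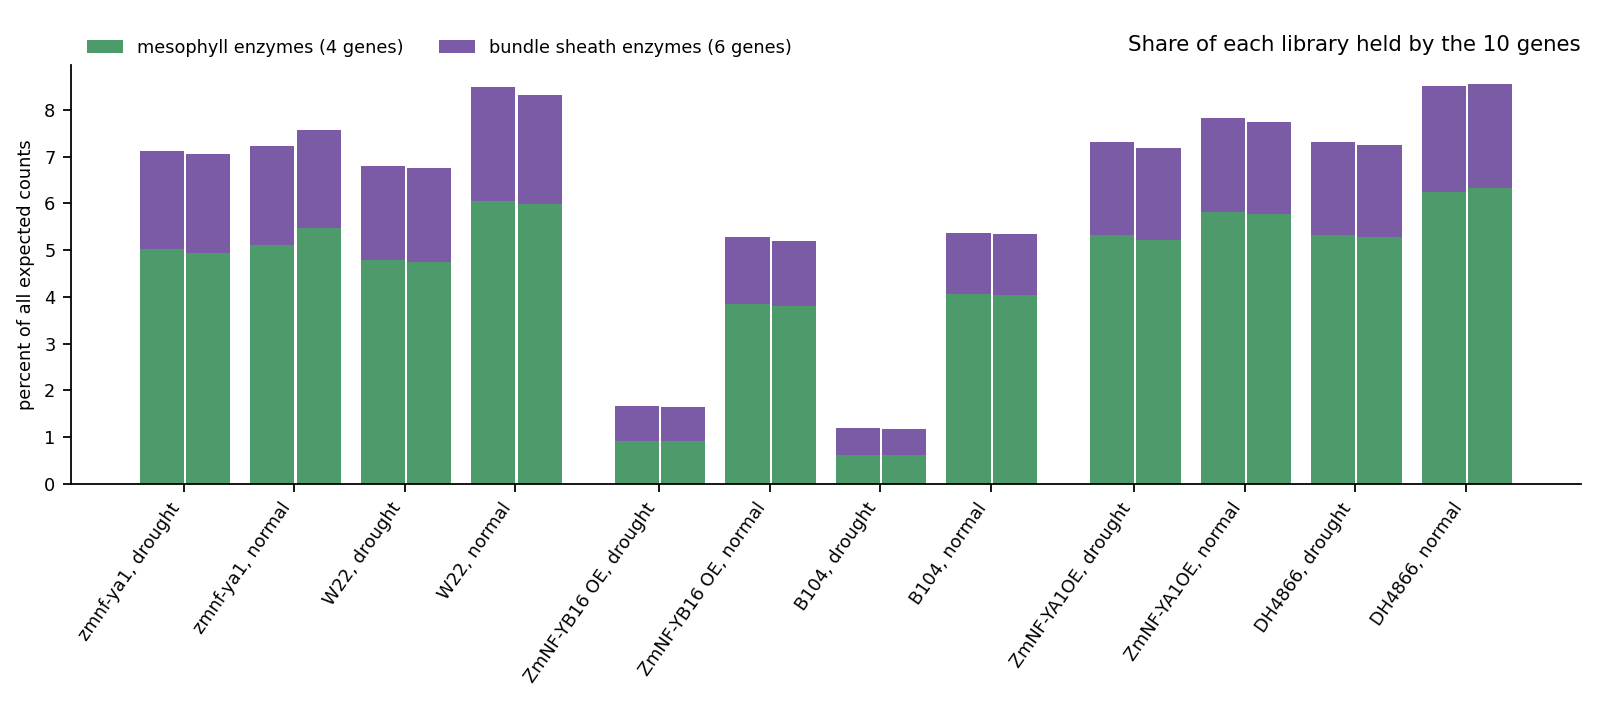
Percent of all expected counts held by the 4 mesophyll enzymes (green) and the 6 bundle sheath enzymes (purple) in each library, with both libraries of a group side by side. The 4 droughted libraries of the B104 set sit between 1.18 and 1.66%, and the other 20 libraries at 5.21% or above.

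Lists of neighbouring pathways, taken by protein description, had medians nearer 0 than the members in droughted B104. Of the Calvin cycle genes, which regenerate the Rubisco substrate, 3 rose and 7 fell of 15 tested in droughted B104 (median log2 fold change -0.23) and 10 rose and 4 fell of 17 in droughted W22 (median 0.28). Among them ribose-5-phosphate isomerase GRMZM5G891282 had log2 fold changes of 0.83 in B104 and -0.34 in W22. The list and its counts also hold a cytosolic fructose-1,6-bisphosphatase caught by the pattern, GRMZM2G322953, with -0.40 in W22. The largest rises in W22 were those of GRMZM5G821433 and GRMZM2G162845, both annotated as like the chloroplast glyceraldehyde-3-phosphate dehydrogenase A, with 71.7 and 61.9 FPKM, against 1.43 and 0.82, for the first and 17.3 and 21.0 FPKM, against 0.43 and 0.68, for the second. In photorespiration, which recycles the product of oxygenation by Rubisco, 2 rose and 5 fell of 13 in B104 (median -0.42) and 6 rose and 4 fell of 15 in W22 (median 0.00). That list also holds a D-3-phosphoglycerate dehydrogenase caught by the pattern. Its P-protein of the glycine cleavage complex, GRMZM2G104310, had -1.41 in B104 and -0.29 in W22, and the hydroxypyruvate reductase-like GRMZM2G174773 rose by 2.99 in W22.

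Of the C4 accessory enzymes and transporters, 3 rose and 15 fell of 28 tested in droughted B104 (median -0.44) and 12 rose and 13 fell of 32 in droughted W22 (median 0.04). The alanine aminotransferase GRMZM5G840582, an enzyme that moves amino groups between alanine and glutamate, had 74.0 and 77.5 FPKM in droughted W22, against 6.05 and 6.17 in normal W22 (log2 fold change 3.77), and -1.35 in B104. GRMZM2G104918, annotated as a soluble inorganic pyrophosphatase, an enzyme that splits pyrophosphate, fell by 1.61 in W22 and 0.78 in B104 on the log2 scale. Whether this copy acts on the pyrophosphate made by PPDK was not tested. Of the other copies of the member enzymes, 4 rose and 3 fell of 12 in B104 (median 0.06) and 2 rose and 5 fell of 12 in W22 (median -0.20). The carbonic anhydrase GRMZM2G414528 went against CA in B104, with 380.2 and 399.6 FPKM under drought, against 103 and 98.4 under normal conditions (log2 fold change 1.66), and fell by 0.72 in W22. Another, GRMZM2G348512, had -1.57 in B104 and 0.44 in W22. Over all genes 25.3% were called higher and 25.9% lower in B104, and 34.8% and 33.8% in W22.

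Likeness of pattern was measured as Pearson's r of log2(CPM + 1), centred within each set, over the 24 libraries and 19792 genes, as a description. The genes most like PEPC were CA (0.996), GRMZM2G059083, annotated as a ferredoxin and in RefSeq as the ferredoxin-NADP reductase L-FNRII (0.993), and the uncharacterized GRMZM2G070605 (0.99). Without the B104 set these values were 0.864, 0.717 and 0.213 over 16 libraries, so the likeness of the last rested on that set. The genes most like RbcS-1 were GRMZM2G058070, an oxygen-evolving enhancer protein of photosystem II (0.99), and the uncharacterized GRMZM2G110277 (0.99) and GRMZM2G047720 (0.988), and these stayed at 0.945 or above without the B104 set. Among the members themselves, the 28 pairs without NADP-ME and RCA3 had an r of 0.821 to 0.996. NADP-ME had 0.384 to 0.747 with the other 9 genes and RCA3 0.288 to 0.644. The libraries share the drought treatment, and those of a set share the inbred background.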

How the data were processed

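RNA-seq of 24 maize leaf libraries was analysed from the tables of each library. Per the study's methods for the W22 and B104 sets, the authors filtered reads with SOAPnuke, aligned them with Bowtie2 to the B73 V3 gene set and counted them with RSEM. These steps are not given in the sources used here for the DH4866 set. The deposited expected counts are estimates that need not be whole, and the deposited FPKM values are scaled by transcript length and library size by the authors. Genes not listed for a library were taken as 0.

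Expected counts were rounded and tested with edgeR 4.0.16 in R 4.3.3 by the quasi-likelihood test, with filterByExpr, TMM scaling and 4 groups per set. The filter kept 24159 genes for the W22 set, 21970 for the B104 set, 24604 for the DH4866 set and 26555 for a fit of all libraries. P values were adjusted by Benjamini-Hochberg over all genes tested. The standard error is the absolute log2 fold change over the square root of F. Totals per library ranged over 20863136 to 21178202 (W22 set), 3429314 to 5608889 (B104 set) and 20696448 to 21289711 (DH4866 set). Alternatives were scaling by RLE or by library size alone, leaving the low-count filter off, DESeq2 1.42.0, limma 3.58.1 on log2(FPKM + 1), a replicate block, and leaving out each library. The code was tested on simulated data. The plots used matplotlib 3.10.9.

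The 10 genes and the pathway lists, matched by protein description, were chosen with earlier results of these data known. Named besides the members were the targeted gene, the 3 genes most correlated with PEPC and with RbcS-1, and, from each list, members among the 2 largest and 2 smallest log2 fold changes that passed the test in droughted W22. RefSeq synonyms came from assembly Zm-B73-REFERENCE-NAM-5.0, which is another build than that of the files, so no coordinates are given.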

Additional observations from a re-analysis of the deposited data

Results flagged for a closer look

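These results are listed because an edgeR test of the difference between drought responses passed, after adjustment over all genes tested. The values are differences of log2 fold changes.

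In ZmNF-YB16 OE minus B104 the differences were 1.07 for PEPC (SE 0.027, adjusted P = 4.75e-16), 0.51 for PPDK (SE 0.017, adjusted P = 3.21e-14), 0.40 for NADP-MDH (SE 0.044, adjusted P = 1.2e-06), 0.64 for CA (SE 0.031, adjusted P = 9.47e-12), 0.32 for NADP-ME (SE 0.027, adjusted P = 4.51e-08), -0.16 for PEPCK (SE 0.033, adjusted P = 0.00136), 0.44 for RbcS-1 (SE 0.052, adjusted P = 3.82e-06), 0.44 for RbcS-2 (SE 0.061, adjusted P = 3.07e-05), 0.87 for RCA1 (SE 0.044, adjusted P = 1.52e-11) and -3.33 for RCA3 (SE 0.28, adjusted P = 3.7e-08).

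In zmnf-ya1 minus W22 they were -0.21 for PEPC (SE 0.054, adjusted P = 0.00919), -0.28 for CA (SE 0.083, adjusted P = 0.0183), 0.45 for PEPCK (SE 0.062, adjusted P = 8.28e-05), -0.74 for RbcS-1 (SE 0.1, adjusted P = 6.71e-05), -0.61 for RbcS-2 (SE 0.09, adjusted P = 0.00014) and -0.49 for RCA3 (SE 0.1, adjusted P = 0.00174). Those of PEPC and CA turn to 0.16 and 0.10 with library size alone, and that of RCA3 becomes -0.12 and does not pass.

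In the libraries labelled ZmNF-YA1OE minus DH4866 they were 0.38 for PPDK (SE 0.053, adjusted P = 0.000153), 0.23 for NADP-ME (SE 0.056, adjusted P = 0.0116), 0.32 for PEPCK (SE 0.056, adjusted P = 0.0012) and 0.33 for RbcS-2 (SE 0.085, adjusted P = 0.0154), although ZmNF-YA1 itself did not differ by the test in these libraries.

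In DH4866 minus W22 they were 0.32 for NADP-MDH (SE 0.063, adjusted P = 0.000227) and -0.96 for RCA3 (SE 0.099, adjusted P = 1.35e-08). In B104 minus W22 they were -4.06 for PEPC (SE 0.052, adjusted P = 3.87e-27), -2.04 for PPDK (SE 0.049, adjusted P = 4.72e-22), -1.23 for NADP-MDH (SE 0.065, adjusted P = 8.45e-15), -4.23 for CA (SE 0.077, adjusted P = 1.39e-24), -0.26 for NADP-ME (SE 0.052, adjusted P = 0.000129), -2.29 for PEPCK (SE 0.053, adjusted P = 2.12e-22), -2.65 for RbcS-1 (SE 0.1, adjusted P = 1.69e-17), -1.85 for RbcS-2 (SE 0.092, adjusted P = 2.23e-15) and -1.54 for RCA1 (SE 0.065, adjusted P = 6.6e-17).

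In B104 minus DH4866 they were -4.18 for PEPC (SE 0.052, adjusted P = 1.95e-27), -1.93 for PPDK (SE 0.049, adjusted P = 1.81e-21), -1.54 for NADP-MDH (SE 0.065, adjusted P = 6.72e-17), -4.10 for CA (SE 0.076, adjusted P = 3.16e-24), -0.23 for NADP-ME (SE 0.052, adjusted P = 0.000741), -2.27 for PEPCK (SE 0.053, adjusted P = 3.28e-22), -2.67 for RbcS-1 (SE 0.1, adjusted P = 1.59e-17), -1.85 for RbcS-2 (SE 0.092, adjusted P = 2.06e-15), -1.41 for RCA1 (SE 0.065, adjusted P = 4.45e-16) and 1.44 for RCA3 (SE 0.23, adjusted P = 6.76e-06). NADP-ME turns to 0.21 and 0.16 in the comparisons of B104 with W22 and with DH4866 when library size alone is used. In B104 minus W22 the inbred cannot be told apart from stage, growth, RNA extraction and platform. In B104 minus DH4866 it cannot be either, since these are not described for the DH4866 set.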

How the results depend on the processing

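Of the 180 member results, 130 were called, and 98 of these kept direction and call in all 6 alternatives and without each library in turn. Of the 130 called results, RLE scaling changed none, library size alone reversed 10 and ended 10, and limma on log2(FPKM + 1) reversed 9 and ended 18. Among the 50 results not called, library size alone reversed 9 and limma 11. A further 16 were called in the same direction with library size alone, and a further 12 with limma. The reversed log2 values of called and uncalled results follow, with library size alone first and limma second.

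For zmnf-ya1 against W22 under normal conditions they were PEPC -0.022 and -0.025, PPDK -0.38 and -0.27, CA -0.077 and -0.062, PEPCK -0.30 and -0.31, RCA1 -0.15 and -0.15 and RCA3 -0.057 and -0.058. For the interaction of zmnf-ya1 and drought they were PEPC 0.16 and 0.17, CA 0.10 and 0.087, NADP-ME 0.33 and 0.34 and RCA1 0.21 and 0.22. NADP-ME gave 0.093 and 0.094 for drought in ZmNF-YB16 OE, 0.21 and 0.22 for B104 against W22, 0.16 and 0.15 for B104 against DH4866, and 0.057 and 0.064 for DH4866 against W22. The last comparison also gave PEPCK 0.076 and 0.083. In the DH4866 set, drought in ZmNF-YA1OE gave PPDK -0.054 and -0.012, ZmNF-YA1OE against DH4866 under normal conditions RCA3 0.067 and 0.065, and the interaction NADP-MDH -0.039 and -0.039. With library size alone PPDK under drought in zmnf-ya1 was 0.016. With limma PPDK was -0.0045 for zmnf-ya1 against W22 under drought and 0.052 for DH4866 against W22. For DH4866 against W22, RLE scaling and DESeq2 gave -0.0083 and -0.0083 for RbcS-1, and -0.018 and -0.018 for RbcS-2. The causes were not tested.

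Counts of called members moved by over 1.5 times in 5 comparisons. Drought in zmnf-ya1 gave 5 with limma, against 9. ZmNF-YA1OE against DH4866 under drought gave 5 with library size alone, 5 with a replicate block and 1 with limma, against 3, and under normal conditions 5 with library size alone and 4 with limma, against 8. The interaction of ZmNF-YA1OE and drought gave 2 with limma, against 4, and the response of DH4866 against that of W22 gave 5 with DESeq2 and 5 with a replicate block, against 2.

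Leaving out each library in turn gave 0 to 4 called members for ZmNF-YA1OE against DH4866 under drought, 2 to 6 for its interaction, 6 to 8 under normal conditions, 4 to 6 for drought in ZmNF-YA1OE, 5 to 7 for the interaction of zmnf-ya1, 2 to 3 and 7 to 8 for zmnf-ya1 against W22 under drought and normal conditions, 8 to 10 for drought in W22, and 7 to 9 and 7 to 10 for ZmNF-YB16 OE against B104 under drought and normal conditions. The interaction of ZmNF-YA1OE fell to 2 without DH4866 drought replicate 2. A lone library left in a group was assumed to vary like the other groups. Directions that turned were those of uncalled results, with ranges of -0.021 to 0.11 for CA and -0.057 to 0.021 for RbcS-2 in zmnf-ya1 against W22 under drought, -0.017 to 0.033 for PPDK under normal conditions, -0.0066 to 0.044 for PPDK in its interaction, -0.022 to 0.067 for PEPCK in ZmNF-YB16 OE against B104 under drought, -0.11 to 0.016 for CA for drought in ZmNF-YA1OE, -0.0035 to 0.079 for CA and -0.032 to 0.0016 for RCA3 in ZmNF-YA1OE against DH4866 under drought and normal conditions, and -0.047 to 0.0095 for PEPCK, -0.093 to 0.13 for RbcS-1 and -0.058 to 0.074 for RbcS-2 in DH4866 against W22.

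The labels share replicate numbers but state no shared origin. Deviations of same-numbered libraries had correlations from 0.03 to 0.10 (W22 set), -0.02 to 0.028 (B104 set) and 0.06 to 0.19 (DH4866 set), and the main fit did not take the numbers as pairs. Among the members, RbcS-2 had a higher FPKM in replicate 1 than in replicate 2 in every group of the W22 and DH4866 sets. In normal W22 these were 3414 and 3159. RbcS-1 and CA were likewise higher in replicate 1 after TMM scaling of their counts. Whether same-numbered libraries share an origin was not tested. A replicate block ended no call and added 10. The lower depth of the B104 set limits RCA3 most, whose level there was lowest.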

Other observations

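Genes annotated as serine-glyoxylate aminotransferase, an enzyme of photorespiration, had a pattern like that of RCA3 in the B104 set. They were chosen after their values were seen. GRMZM2G359559 had 406 and 317 expected counts in normal ZmNF-YB16 OE, against 7.0 and 1.92 in normal B104. GRMZM2G050481 had 28.1 and 42.6 in normal ZmNF-YB16 OE, against 0 and 0 in normal B104. Both were low in droughted ZmNF-YB16 OE (5.63 and 0 for the first and 0 and 0 for the second).

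RCA3 held 5.5 and 5.43% of the summed FPKM of RCA1 and RCA3 in normal ZmNF-YB16 OE, against 0.35 and 0.252% in normal B104. RbcS-2 over RbcS-1 was 1.47 and 1.46 in droughted ZmNF-YB16 OE, against 0.956 and 0.955 in normal ZmNF-YB16 OE, and 1.12 and 1.1 in droughted B104, against 0.694 and 0.735 in normal B104.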
